A study of Mus musculus with 18 samples.

Results

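The genes described here are 10 markers of large, myelinated sensory neurons, followed in dorsal root ganglia (DRG) of mice with and without myeloma in the femur: Nefh, Nefm, Nefl, Pvalb, Runx3, Etv1, Whrn, Calb1, Cntnap2 and Slc17a7. They were taken by symbol from 48529 genes with a transcript in the deposited quantifications, and all 10 passed the filter on low counts that left 15774 genes for testing. In the MM group, 9 male C57BL/KaLwRijHsd mice had received 5TGM1-GFP cells in the femur; these are a GFP-labelled mouse myeloma line, a tumour of plasma cells that grows in bone marrow of this strain. In the SHAM group, 9 male mice of that strain had received vehicle by the same route. The labels give an age of 5 to 7 weeks for both groups, name no transgene or Cre allele, and give no batch. Whole lumbar ganglia L2, L3 and L4 of the injected side were frozen on day 24 after surgery, and 1 library of total RNA was made for each mouse, named here by group and number (MM1 to MM9, SHAM1 to SHAM9).

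A DRG holds the cell bodies of several classes of sensory neuron. Proprioceptors supply muscle spindles and tendon organs, A-fibre mechanoreceptors supply skin and other tissues, and both send thick myelinated axons; C-fibre nociceptors have thin unmyelinated axons and small cell bodies. Large neurons are rich in neurofilament, the polymer that sets axon calibre. They load glutamate with the transporter VGLUT1, buffer calcium with parvalbumin or calbindin, and, in proprioceptors, depend on the transcription factors Runx3 and Etv1 for their identity and central connections. The libraries are of whole tissue, so that fewer large neurons and less of an RNA per neuron cannot be told apart.

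Each library held between 19014161 and 21538262 estimated reads in genes. The tissue label was met: pan-neuronal genes such as Uchl1, a neuronal deubiquitinase (1798 ± 313 CPM in MM and 1893 ± 117 CPM in SHAM, with the SD of 9 libraries in each) were abundant in both groups. CPM is a library-scaled count of reads per gene; TPM, used for levels between genes, is scaled for transcript length as well. Of 12 spinal cord markers 4 passed the filter on low counts, and the list summed to between 16.7 and 46.9 CPM in MM and between 8.96 and 26.5 CPM in SHAM. Aqp4, a water channel gene of astrocytes that other glia can also express, reached 30.4 CPM in MM and 14.1 CPM in SHAM, whereas Olig2 (oligodendrocytes) and Mnx1 (motor neurons) had no more than 0.233 CPM in any library. RNA of other tissues was present too. The summed level of 20 skeletal muscle genes was between 42.9 and 2965 CPM in MM and between 18.3 and 27609 CPM in SHAM, and Ighg2b, the immunoglobulin heavy chain gene of the myeloma cells, was between 11.7 and 4374 CPM in MM and between 0.100 and 16.4 CPM in SHAM. MM5, MM8 and MM9 had the most Ighg2b, and SHAM7 and SHAM8 the most muscle RNA. The fold change of each marker is given also without MM5, MM8 and MM9, and that of Pvalb also without SHAM7 and SHAM8.

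With libraries scaled on all genes, each of the markers had a lower fitted level in MM than in SHAM, but none passed the test, and Runx3 and Calb1 were no longer lower when libraries were scaled on pan-neuronal genes. Of all 15774 genes, 2.99% (471) passed edgeR's quasi-likelihood test at an adjusted p under 0.05 (2.75% higher and 0.241% lower in MM), and 0 of the 10 markers did; DESeq2, which called 6.88% of 19999 genes, also called 0. At an unadjusted p under 0.05, 3 of the 10 (Pvalb, Etv1 and Whrn) were lower in MM, against 8.6% of all genes. The fold change was negative for 10 of 10 markers, against 51.1% of all genes, but for 8 of 10 when libraries were scaled on 24 pan-neuronal genes, where Runx3 and Calb1 stood at 0.01 each on the log2 scale. That scaling moved the median log2 fold change of all tested genes to 0.21, against -0.0042 with the scaling on all genes. It divides by the summed counts of the 24 genes, so the most abundant of them weigh most. They include Vamp1 and Atp1b1, each among the 3 genes most like Nefh or Nefl across libraries. A shift of the markers towards no difference is thus partly built into this scaling. The median log2 fold change of the 10 markers was -0.21 with the scaling on all genes and -0.06 with the pan-neuronal one. For no marker did the 2 groups of libraries separate, as they did for 0.146% of all genes.

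**Figure D1:**
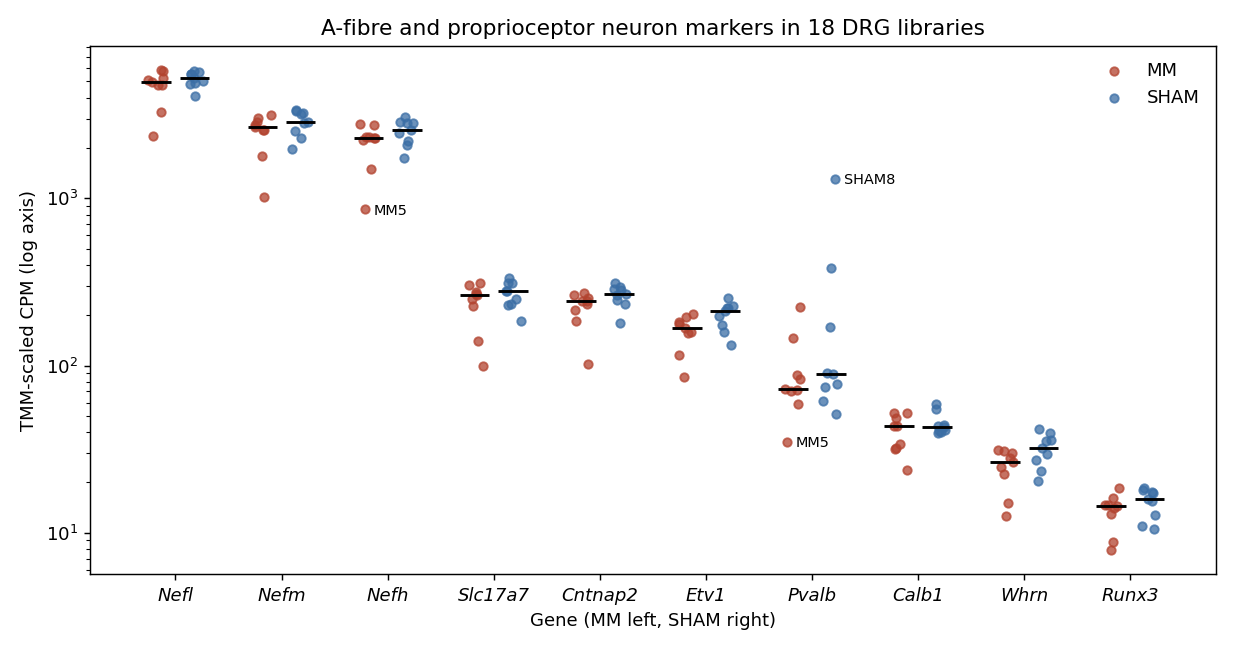
TMM-scaled CPM (log axis) of the 10 markers in 9 MM (left of each pair) and 9 SHAM (right) libraries; each point is 1 library and bars are medians. The groups overlap for every gene, MM5 lies lowest for most of them, and Pvalb spreads most widely, with SHAM8 at 1308 CPM.

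The neurofilament subunits were the most abundant of the 10 per transcript length. Nefl, the light subunit on which the filament is built, averaged 2463 ± 691 TPM in MM and 2818 ± 388 TPM in SHAM (± SD of 9 libraries per group). Nefm, the medium subunit, averaged 1332 ± 409 TPM in MM and 1568 ± 314 TPM in SHAM. Nefh, the heavy subunit whose long tail spaces filaments and which anti-NF200 antibodies detect, averaged 944 ± 293 TPM in MM and 1142 ± 229 TPM in SHAM. The order Nefl, Nefm, Nefh held for these means in both groups. Together the 3 subunits made up 0.474% ± 0.139 of all TPM in MM and 0.553% ± 0.0924 in SHAM, with the lowest share, 0.194%, in MM5 and the highest, 0.652%, in SHAM5.

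On the CPM scale Nefh had a lowest, median and highest value of 859, 2284 and 2768 in MM, against 1737, 2557 and 3067 in SHAM. Of the 9 MM libraries 7 lay below the SHAM median, but only MM5 and MM9 lay below the lowest SHAM library. Fitted over all libraries, its log2 fold change was -0.23 (SE 0.17, 95% interval -0.59 to 0.13; edgeR adjusted p = 0.436). Nefm had 1012, 2681 and 3164 CPM in MM, against 1967, 2840 and 3384 in SHAM, a log2 fold change of -0.19 (95% interval -0.55 to 0.16; edgeR adjusted p = 0.512). Nefl had 2347, 4990 and 5855 CPM in MM, against 4069, 5233 and 5802 in SHAM, and its log2 fold change was -0.15 (95% interval -0.44 to 0.14; edgeR adjusted p = 0.529). By CPM the highest Nefl value of all 18 libraries was thus in MM3. By TPM it was in SHAM5, at 3286 TPM, against 3114 TPM in MM2, the highest MM library. Without MM5, MM8 and MM9 the log2 fold change was -0.04 for Nefh, -0.0017 for Nefm and 0.03 for Nefl, so that Nefl changed sign.

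The ratios between subunits varied less than their levels. Nefl over Nefh in TPM was 2.66 ± 0.248 in MM and 2.50 ± 0.201 in SHAM, Nefl over Nefm was 1.88 ± 0.163 in MM and 1.82 ± 0.147 in SHAM, and Nefm over Nefh was 1.42 ± 0.0688 in MM and 1.37 ± 0.0281 in SHAM (± SD of 9 libraries per group). MM5 stood apart with a Nefl over Nefh ratio of 3.28, where the next MM library had 2.74. In that library the heavy and medium subunits were thus lower relative to the light one than in any other. The other intermediate filament genes were counted beside them: of 5 tested, 0 passed the test, with a median log2 fold change of 0.23. Peripherin (Prph), the filament of small neurons, averaged 1216 ± 187 CPM in MM and 1240 ± 67.9 CPM in SHAM, and vimentin (Vim), of glia and other non-neuronal cells, averaged 503 ± 118 CPM in MM and 429 ± 56.5 CPM in SHAM. Internexin alpha (Ina), a neuronal filament partner of the triplet, had a log2 fold change of -0.19 (edgeR adjusted p = 0.244).

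Pvalb, the calcium buffer parvalbumin, had the largest fitted difference of the 10 and the widest spread. Its CPM ran from 35.0 through a median of 72.9 to 224 in MM, against 51.2, 88.7 and 1308 in SHAM. The means, 94.3 ± 57.0 CPM in MM and 256 ± 408 CPM in SHAM over 9 libraries each, were far from the medians in SHAM, where SHAM8 had 1308 and SHAM7 381 CPM. Its fitted log2 fold change was -1.44 (SE 0.61, 95% interval -2.72 to -0.16; edgeR adjusted p = 0.180), and -0.36 in DESeq2 (adjusted p = 0.665). In edgeR it was -1.16 without MM5, MM8 and MM9. Without SHAM8 it was -0.40 (edgeR adjusted p = 0.603), and without SHAM7 and SHAM8 it changed sign to 0.11 (edgeR adjusted p = 0.885). Parvalbumin is also an abundant protein of fast skeletal muscle in mice. The 5 libraries highest in Pvalb were also the 5 highest in summed muscle genes, in the same order: SHAM8 with 27609, SHAM7 with 5684, MM6 with 2965, SHAM2 with 1780 and MM2 with 1114 CPM of muscle RNA.

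The deposited files hold 2 Pvalb transcripts, and they behaved differently across libraries. Pvalb-202 was listed at 0 in SHAM1 and reached 2866 TPM in SHAM8; its lowest, median and highest values were 3.37, 52.6 and 503 TPM in MM, against 0, 15.1 and 2866 TPM in SHAM. Pvalb-201 had 47.7, 116 and 173 TPM in MM, against 69.8, 134 and 218 TPM in SHAM. In the 5 libraries with over 500 CPM of muscle RNA, Pvalb-202 made up 86.7% (MM6), 68.0% (MM2), 97.6% (SHAM8), 92.6% (SHAM7) and 72.0% (SHAM2) of Pvalb TPM. In the other 7 MM libraries the share was between 1.91% (MM7) and 52.9% (MM9), and in the other 6 SHAM libraries between 0 (SHAM1) and 17.1% (SHAM5). For Pvalb-201 the log2 fold change was -0.26 (SE 0.25; edgeR adjusted p = 0.696 over 33345 transcripts) and for Pvalb-202 it was -2.08 (SE 1.32; edgeR adjusted p = 0.511). The second turned to 1.14 without SHAM7 and SHAM8 and to 1.99 without all 5 libraries above 500 CPM of muscle RNA, with edgeR adjusted p of 0.774 and 0.474; Pvalb-201 stayed negative, at -0.45 and -0.44. The split between transcripts of 1 gene is Salmon's estimate, whose uncertainty is not in the files. How far muscle RNA sets the Pvalb difference was not tested beyond these fits.

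**Figure D2:**
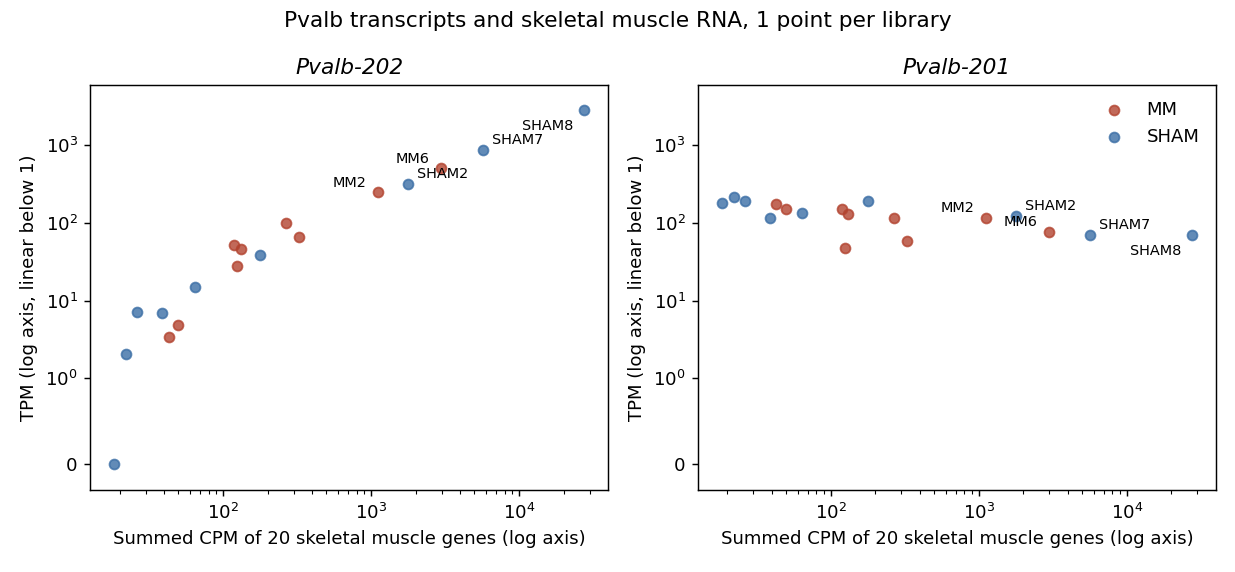
TPM of Pvalb-202 (left) and Pvalb-201 (right; log axes, linear below 1) against the summed CPM of 20 skeletal muscle genes (log axis) in 9 MM and 9 SHAM libraries, 1 point per library. Pvalb-202 climbs with muscle RNA from 0 in SHAM1 to 2866 TPM in SHAM8, while Pvalb-201 lies between 47.7 and 218 TPM. The lowest Pvalb-201 values were in SHAM8 (69.8 TPM) and SHAM7 (70.2 TPM) in SHAM. In MM they were in MM5 (47.7 TPM) and MM9 (59.1 TPM), which are not muscle-rich.

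The 2 transcripts begin at separate start sites of the RefSeq annotation, both on the minus strand of chromosome 15, which is why both promoters are shown. Coordinates and sequences are RefSeq's for GRCm38.p6, an older build than the GRCm39 of the quantification, and each run holds 250 bases before and 50 after the start. Pvalb-202 begins at the upstream start (window chr15:78206351-78206650, 58.3% G and C), and Pvalb-201 at the downstream one (chr15:78204188-78204487, 67.7% G and C), against a median of 52.7% over all 32851 promoters. Capitals mark a match to the MEF2 motif, which muscle and neuronal MEF2 factors bind, in the first and 2 matches to the E-box CANNTG in the second, each searched on both strands.
Pvalb-202 promoter: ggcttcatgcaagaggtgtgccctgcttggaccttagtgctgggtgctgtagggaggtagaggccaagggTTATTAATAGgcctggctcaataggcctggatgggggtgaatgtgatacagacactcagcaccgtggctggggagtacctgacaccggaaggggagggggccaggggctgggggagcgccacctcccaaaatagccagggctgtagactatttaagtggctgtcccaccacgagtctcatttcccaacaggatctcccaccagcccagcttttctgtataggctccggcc
Pvalb-201 promoter: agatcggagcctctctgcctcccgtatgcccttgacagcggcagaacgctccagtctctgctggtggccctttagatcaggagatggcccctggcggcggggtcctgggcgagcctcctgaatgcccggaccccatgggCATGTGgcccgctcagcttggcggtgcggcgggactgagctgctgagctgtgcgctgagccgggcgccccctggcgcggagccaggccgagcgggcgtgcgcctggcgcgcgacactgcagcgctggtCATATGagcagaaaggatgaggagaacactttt
The MEF2 match begins 180 bases before the Pvalb-202 start, and 3.19% of all promoters hold one. The E-boxes begin 111 bases before and 17 bases after the Pvalb-201 start, and 72.3% of all promoters hold at least 1. The Pvalb-202 window held no CANNTG and the Pvalb-201 window no MEF2 match; these are descriptions of the letters only.

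Runx3, the transcription factor that proprioceptors need to keep the neurotrophin receptor TrkC, was the least abundant of the 10, at 7.82 ± 2.64 TPM in MM and 9.77 ± 3.59 TPM in SHAM (± SD of 9 libraries per group). Its CPM was 7.87, 14.5 and 18.5 (lowest, median and highest) in MM, against 10.5, 15.9 and 18.4 in SHAM. By CPM the highest library of all 18 was MM8 and the lowest MM9. By TPM the highest was SHAM3, at 16.3 TPM, and the lowest again MM9, at 3.34 TPM. Runx3 had a log2 fold change of -0.17 (SE 0.16, 95% interval -0.49 to 0.16; edgeR adjusted p = 0.535), and -0.07 without MM5, MM8 and MM9. Runx3 also acts in T and NK lymphocytes. The summed level of 12 lymphocyte markers was between 2.32 and 16.3 CPM in MM and between 2.13 and 4.65 CPM in SHAM, with the highest values in MM5 and MM9, the libraries lowest in Runx3; the defining T-cell gene Cd3e had no more than 0.583 CPM in any library.

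Runx3 has 2 annotated start regions, and reads were assigned to transcripts of both. Runx3-201, which begins 7 bases from RefSeq's upstream start on the plus strand of chromosome 4 (window chr4:135120395-135120694), took 71.8% of Runx3 TPM on average. Runx3-202, which begins near the downstream start (chr4:135152295-135152594), took 15.3%. The log2 fold changes were -0.17 for Runx3-201 and 0.09 for Runx3-202 (edgeR adjusted p of 0.690 and 0.925). The windows are shown because the upstream one holds the RUNX motif in 2 copies; capitals mark ACCACA, searched on both strands.
Runx3 upstream promoter: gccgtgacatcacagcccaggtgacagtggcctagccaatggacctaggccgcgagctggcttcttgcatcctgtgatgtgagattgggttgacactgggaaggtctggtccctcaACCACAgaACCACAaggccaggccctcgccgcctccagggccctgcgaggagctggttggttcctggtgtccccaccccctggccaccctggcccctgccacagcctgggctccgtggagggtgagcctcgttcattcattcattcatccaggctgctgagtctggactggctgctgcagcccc
Runx3 downstream promoter: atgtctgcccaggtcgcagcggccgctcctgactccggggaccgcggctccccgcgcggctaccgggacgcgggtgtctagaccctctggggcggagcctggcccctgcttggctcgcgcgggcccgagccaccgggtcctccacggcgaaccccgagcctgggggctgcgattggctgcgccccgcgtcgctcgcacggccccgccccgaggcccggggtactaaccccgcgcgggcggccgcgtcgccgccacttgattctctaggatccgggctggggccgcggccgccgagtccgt
The copies begin 134 and 126 bases before the upstream start, the downstream window has none, and 16.8% of all promoters of this length hold at least 1. The downstream window is 77.3% G and C, against 63.7% in the upstream one.

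Etv1 (also Er81), the ETS-family transcription factor through which proprioceptors reach motor neurons, averaged 63.0 ± 18.8 TPM in MM and 87.1 ± 19.0 TPM in SHAM. It had 85.9, 167 and 202 CPM in MM, against 132, 213 and 252 CPM in SHAM. All 9 MM libraries lay below the SHAM median, yet 7 of them lay within the SHAM range. The log2 fold change was -0.32 (SE 0.15, 95% interval -0.63 to -0.01; unadjusted p = 0.0446, edgeR adjusted p = 0.212), and -0.16 without MM5, MM8 and MM9 (edgeR adjusted p = 0.723). Of 5 Etv1 transcripts with over 5% of its TPM, the longest, Etv1-201, took 42.1% and had a log2 fold change of -0.28, while the short Etv1-208 took 10.7% and had -0.81 (edgeR adjusted p of 0.415 and 0.297). Among 6 relatives of Runx3 and Etv1, 0 passed and the median log2 fold change was 0.03. Cbfb, the shared partner of RUNX proteins, averaged 238 ± 34.0 CPM in MM and 239 ± 19.1 CPM in SHAM, Etv5 averaged 85.8 ± 11.9 CPM in MM and 81.6 ± 8.34 CPM in SHAM, and Runx1, the RUNX factor of C-fibre nociceptors, averaged 60.1 ± 6.43 CPM in MM and 68.1 ± 4.02 CPM in SHAM.

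Whrn encodes whirlin, a scaffold protein of hair cell stereocilia that in DRG marks proprioceptors. It averaged 13.8 ± 3.97 TPM in MM and 19.4 ± 4.57 TPM in SHAM. Its CPM was 12.6, 26.4 and 31.3 in MM, against 20.3, 32.2 and 41.8 in SHAM. As with Etv1, all 9 MM libraries lay below the SHAM median, with MM5 and MM9 below the lowest SHAM library. Whrn had a log2 fold change of -0.37 (SE 0.17, 95% interval -0.73 to -0.0004; unadjusted p = 0.0498, edgeR adjusted p = 0.222). Without MM5, MM8 and MM9 it was -0.20. No single Whrn transcript held most of the RNA: Whrn-206 took 26.5% of TPM, Whrn-202 20.9% and Whrn-209 17.8%. Whrn-202 had the lowest adjusted p of the 28 marker transcripts tested, with a log2 fold change of -0.61 (SE 0.22; edgeR adjusted p = 0.218; of all transcripts, 0.33% passed). Of 5 whirlin partners of the inner ear, 3 had enough counts to be tested and 0 passed: Eps8 averaged 10.2 ± 4.11 CPM in MM and 7.62 ± 1.12 CPM in SHAM, Pdzd7 averaged 3.70 ± 0.529 CPM in MM and 3.96 ± 0.546 CPM in SHAM, and Myo15 (Myo15a) averaged 3.24 ± 0.592 CPM in MM and 3.30 ± 0.551 CPM in SHAM.

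Calb1, the calcium buffer calbindin found in a class of A-fibre mechanoreceptors, had more MM libraries below the lowest SHAM library than any other marker. It averaged 31.0 ± 8.69 TPM in MM and 39.4 ± 5.52 TPM in SHAM. On the CPM scale it had 23.8, 43.3 and 52.3 in MM, against 39.7, 42.6 and 59.1 in SHAM, and the 4 MM libraries below the SHAM median also lay below the lowest SHAM library. The median was slightly higher in MM by CPM but lower in MM by TPM, with 28.4 TPM in MM and 39.5 TPM in SHAM. Calb1 had a log2 fold change of -0.17 (SE 0.14, 95% interval -0.45 to 0.12; edgeR adjusted p = 0.474), and -0.09 without MM5, MM8 and MM9. By TPM, the retained-intron transcript Calb1-202 took 54.0% and the coding Calb1-201 45.9%, but by reads Calb1-201 took 89.2%, since the first is the shorter. Their log2 fold changes were -0.41 for Calb1-202 and -0.12 for Calb1-201 (edgeR adjusted p of 0.344 and 0.775). Of 7 other neuronal calcium-binding genes, 6 had enough counts to be tested and 0 passed, with a median log2 fold change of -0.16. Hpcal1 averaged 123 ± 14.1 CPM in MM and 129 ± 10.9 CPM in SHAM, Vsnl1 averaged 156 ± 36.4 CPM in MM and 176 ± 15.2 CPM in SHAM, and Necab1 averaged 190 ± 42.7 CPM in MM and 210 ± 25.3 CPM in SHAM.

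Cntnap2 encodes Caspr2, which with contactin-2 holds Kv1 potassium channels at the juxtaparanode, beside the node of Ranvier of a myelinated axon. It averaged 72.2 ± 20.7 TPM in MM and 82.7 ± 14.6 TPM in SHAM. Its CPM was 102, 244 and 270 in MM, against 179, 268 and 312 in SHAM; 8 of 9 MM libraries lay below the SHAM median and 1, MM5, below the lowest SHAM library. The log2 fold change was -0.23 (SE 0.15, 95% interval -0.54 to 0.07; edgeR adjusted p = 0.346), and -0.06 without MM5, MM8 and MM9. The full-length Cntnap2-202, which begins at RefSeq's upstream start, took 66.0% of its reads. The shorter Cntnap2-205 and Cntnap2-201, which begin near the downstream start, took 25.0% and 8.79%. By TPM, which is scaled for length, the shares were 36.1% for Cntnap2-202, 21.7% for Cntnap2-205 and 36.4% for Cntnap2-201. In log2 fold change they stood at -0.24 for Cntnap2-202, -0.24 for Cntnap2-205 and 0.02 for Cntnap2-201 (the lowest edgeR adjusted p was 0.447). Of 13 node and juxtaparanode partners 0 passed and 13 had a negative log2 fold change, with a median of -0.21. The 3 highest by TPM were Epb41l3, the anchor of Caspr proteins to the cytoskeleton, with 383 ± 80.9 CPM in MM and 443 ± 62.1 CPM in SHAM, Kcnab2, a Kv1 subunit, with 222 ± 36.2 CPM in MM and 256 ± 28.4 CPM in SHAM, and the paranodal adhesion protein Cntn1, with 455 ± 113 CPM in MM and 502 ± 77.2 CPM in SHAM.

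Slc17a7 encodes VGLUT1, the vesicular glutamate transporter of large-diameter afferents. It averaged 147 ± 48.4 TPM in MM and 172 ± 35.4 TPM in SHAM. Its CPM was 99.3, 264 and 312 in MM, against 184, 278 and 332 in SHAM, and 7 of 9 MM libraries lay below the SHAM median. The log2 fold change was -0.18 (SE 0.18, 95% interval -0.55 to 0.20; edgeR adjusted p = 0.578), and 0.02 without MM5, MM8 and MM9. Slc17a6, the VGLUT2 transporter that most DRG neurons carry, averaged 234 ± 37.6 CPM in MM and 245 ± 17.4 CPM in SHAM, and Slc17a8, VGLUT3, averaged 22.5 ± 4.81 CPM in MM and 24.0 ± 3.02 CPM in SHAM; neither passed the test.

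**Figure D3:**
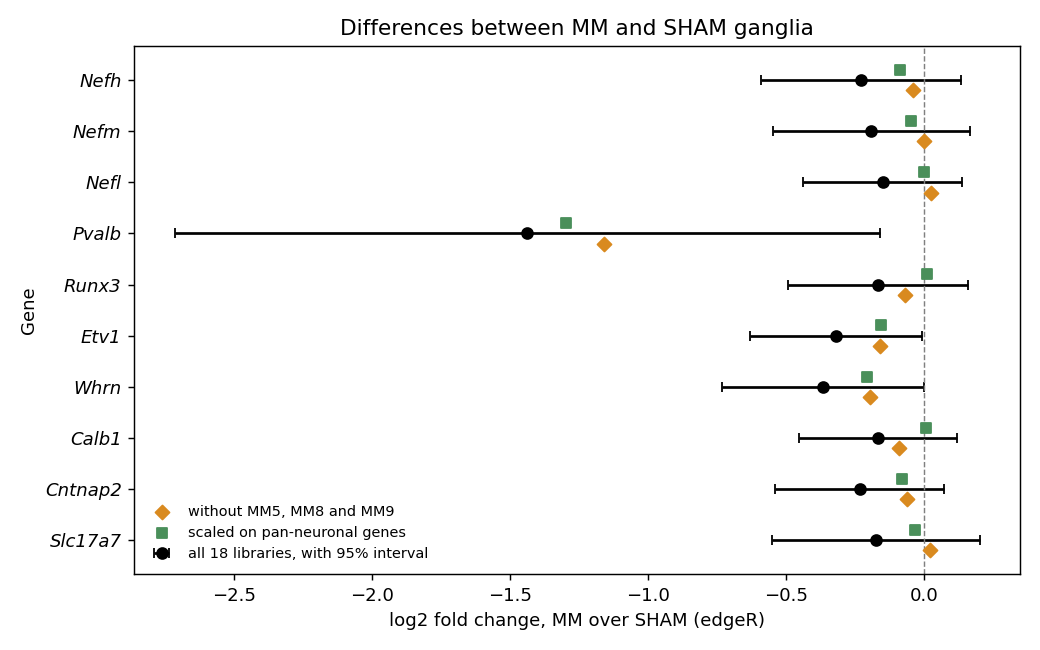
Fitted log2 fold change of each marker, MM over SHAM, from edgeR with all 18 libraries (black, with 95% interval), without MM5, MM8 and MM9 (orange diamonds), and scaled on pan-neuronal genes (green squares). All black points are negative; Nefl and Slc17a7 turn positive in the first alternative, at 0.03 and 0.02, and Runx3 and Calb1 in the second, at 0.01 each.

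By mean TPM, the order in SHAM was Nefl, Nefm, Nefh, Pvalb, Slc17a7, Etv1, Cntnap2, Calb1, Whrn and Runx3; in MM it was the same except that Cntnap2, with 72.2 TPM, stood above Etv1, with 63.0 TPM. The difference between Etv1 and Cntnap2 is within their SDs in both groups, and Pvalb has an SD in SHAM, 911 TPM, that exceeds its distance to Nefh and to Slc17a7. In MM, Nefm and Nefh also stood within 1 SD of Nefm as means, but inside each library Nefm exceeded Nefh, with a lowest ratio of 1.33, and Nefl exceeded Nefm, with a lowest ratio of 1.66.

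A few libraries carried most of the spread. Ranked by CPM, MM5 was the lowest of 18 for 9 markers and the second lowest for Runx3, where MM9 was lowest. MM9 and SHAM6 were each among the lowest 3 for 9 markers, all but Calb1. SHAM9 was the highest for 5 markers. The summed CPM of the 10 markers was 4585 in MM5, 7112 in MM9 and 8390 in SHAM6, while the other 7 MM libraries held between 10410 and 12688 and the other 8 SHAM libraries between 9946 and 13256. Leaving out MM5 alone brought the median log2 fold change of the 10 to -0.11, and leaving out MM5, MM8 and MM9 brought it to -0.07, where the lowest adjusted p was 0.699 (edgeR).

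Macrophage genes were high in MM5, MM9 and SHAM6, whereas glial genes followed no single direction across these libraries. Summed over 12 macrophage markers, MM5 had 759, MM9 559 and SHAM6 254 CPM, against 135 to 369 CPM in the other MM and 83.5 to 170 CPM in the other SHAM libraries. Summed over 11 Schwann cell markers, MM5 had 18182 and SHAM6 13787 CPM, the highest of their groups, but MM9 had 5568 CPM. Summed over 7 satellite glia markers, MM5 had 2292, MM9 1823 and SHAM6 2626 CPM, against a mean of 2622 CPM in SHAM. Ighg2b stood at 2197 CPM in MM5, 2334 CPM in MM8 and 4374 CPM in MM9. The 10 markers summed to 4585 CPM in MM5, 10410 CPM in MM8 and 7112 CPM in MM9. Nefh, at 2280 CPM in MM8, lay there within the range of SHAM. The part of these cells in the marker levels was not tested. Pan-neuronal genes were low in the same libraries: their sum was 13926 CPM in MM5, 19962 in MM9 and 21610 in SHAM6, against at least 24036 in the other MM libraries and 25078 in the other SHAM libraries. Set against that sum, on the log2 scale and relative to the SHAM mean, MM5 stood at -0.58 for Nefh, -0.51 for Nefm, -0.46 for Slc17a7, -0.40 for Cntnap2, -0.35 for Whrn, -0.24 for Etv1, -0.18 for Nefl, 0.04 for Calb1, 0.18 for Runx3 and -0.96 for Pvalb. MM9 stood at -0.30 for Nefh, -0.22 for Nefm, -0.48 for Slc17a7, -0.07 for Cntnap2, -0.61 for Whrn, -0.33 for Etv1, -0.23 for Nefl, 0.66 for Calb1, -0.49 for Runx3 and -0.74 for Pvalb. Between these 2 libraries, Runx3 and Calb1 differed most. For Pvalb the SHAM mean is raised by SHAM8, at 3.29, and SHAM7, at 1.57. SHAM4 and SHAM6, at -0.99 and -1.05, stood lower for Pvalb than MM5 and MM9.

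**Figure D4:**
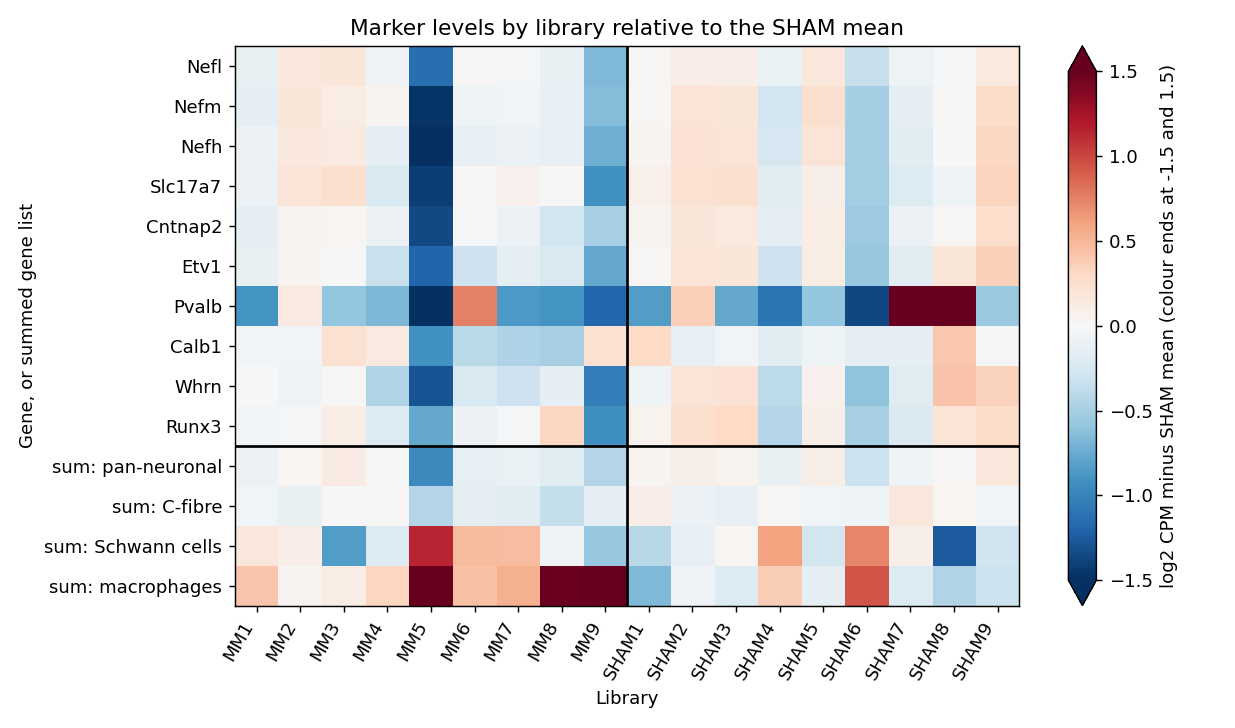
Log2 CPM minus the SHAM mean for each marker (upper rows) and for the summed CPM of 4 gene lists (lower rows) in 9 MM and 9 SHAM libraries; colours end at -1.5 and 1.5. MM5, MM9 and SHAM6 are blue down most marker rows, Pvalb is dark red in SHAM7 and SHAM8, and macrophage genes are red in MM5, MM8, MM9 and SHAM6.

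Genes that mark the same neuron classes were counted from lists other than the 10. Of 20 further markers of A-fibre mechanoreceptors and proprioceptors, 0 passed edgeR's test (at an unadjusted p under 0.05, 5 were lower and 1 was higher), and 19 had a negative log2 fold change with a median of -0.19. Among all 15774 genes, 1357 were lower and 2199 higher at that unadjusted p, and 51.1% had a negative log2 fold change. Thy1, a surface protein of large neurons, averaged 850 ± 194 CPM in MM and 886 ± 76.3 CPM in SHAM. The sodium pump regulator Fxyd7 averaged 289 ± 88.4 CPM in MM and 303 ± 56.0 CPM in SHAM. The exception, named after its values were seen, was Spp1 (osteopontin), with 172 ± 50.1 CPM in MM and 124 ± 28.7 CPM in SHAM and a log2 fold change of 0.47 (edgeR adjusted p = 0.122); osteopontin is also made by macrophages.

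C-fibre nociceptor genes gave the comparison with small neurons. Of 16 tested, 2 passed, both lower in MM, where 0.241% of all genes were; they were the sodium channel gene Scn11a (log2 fold change -0.28; edgeR adjusted p = 0.047) and the receptor gene Mrgprd (-0.26; edgeR adjusted p = 0.0427), both named after their values were seen. The median log2 fold change of the 16 was -0.10. Calca, the most abundant per transcript length (by TPM), averaged 810 ± 102 CPM in MM and 794 ± 95.3 CPM in SHAM, Tac1 averaged 163 ± 31.8 CPM in MM and 158 ± 19.7 CPM in SHAM, and Scn10a averaged 910 ± 115 CPM in MM and 1094 ± 81.0 CPM in SHAM. Whether the 10 A-fibre markers differed from C-fibre genes in their response was not tested. Of 24 pan-neuronal genes, 1 passed (the non-coding Snhg11, lower in MM), and their median log2 fold change was -0.14. Negative log2 fold changes were thus common in neuronal genes of other lists too, at 23 of 24 pan-neuronal and 13 of 16 C-fibre genes. Of 10 genes that rise in axotomised neurons, 0 passed and 10 had a positive log2 fold change, against 7706 of all 15774 genes. Their median log2 fold change was 0.57, and Gap43 among them stands in the pan-neuronal list as well. Their summed level stood apart in MM4, at 730 CPM, and MM8, at 838 CPM, while the other 7 MM libraries held 311 to 426 CPM and the 9 SHAM libraries 312 to 445 CPM. Atf3, the best known of them, had 29.8 ± 30.9 CPM in MM and 15.1 ± 5.11 CPM in SHAM.

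Across the 18 libraries, after each gene was centred on its own group mean, 8 of the 10 markers moved closely together, with a Pearson's r of log2 CPM of at least 0.751 between any pair of them. It was 0.992 between Nefh and Nefm, 0.982 between Nefh and Nefl, 0.979 between Nefh and Slc17a7 and 0.965 between Etv1 and Whrn. Calb1 had r of no more than 0.521 with any other marker and Pvalb no more than 0.503. These points share library composition and depth, and the values are descriptions. MM5, MM9 and SHAM6, low for most of the markers, are among the points. How far r rests on these libraries was not tested. Among 14748 other genes with a mean of at least 1 CPM, the genes most like Nefh were Vamp1, Syt2 and Slitrk1, each with r of 0.99. Syt2 was also among the 3 most like Nefm. For Cntnap2 they were Unc80, Sv2b and Cntn1, and for Slc17a7 Epn3, Fam57b and Ccdc92, again with r of 0.99. Etv1 was matched by Stk24 (0.98) and Coro6 (0.97), and Whrn by Fam160b2, Mest and Dlgap4 (0.96 to 0.97). Nefm was further matched by Map7d2 and Nrg1 and Nefl by Lgi3, Atp1b1 and Lrrc49, all at 0.99. Vamp1 and Atp1b1 stand in the pan-neuronal list as well. The match was looser for Calb1, with Gda, Plcxd2 and Ccnh (0.89 to 0.90), and for Runx3, with Cd96, Mdga1 and Clmp (0.92 to 0.93). Pvalb alone was matched by genes of striated muscle: Ldb3 (r = 0.99), Smpx (0.98) and Srl (0.97), which averaged 20.2, 3.50 and 11.7 CPM in MM and 57.1, 7.93 and 37.1 CPM in SHAM.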

How the data were processed

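RNA of whole ganglia from 9 MM and 9 SHAM mice was sequenced (DNBSEQ), and per the submitters' processing notes Salmon 1.5.2, GRCm39 and DESeq2 were used. The authors made each deposited estimated count with Salmon, per the submitters' processing notes: it is the expected number of reads of a transcript, not scaled. The deposited TPM values beside it were scaled by Salmon, and effective lengths are in bases. Salmon's options and index are not given in the sources used here. Estimated counts and TPM were summed per gene with GENCODE M21 (GRCm38; identifiers used as names only); 3620 of 137562 transcripts had no gene there and were left out, with 0.85% to 1.339% of reads per library.

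Sums were rounded, filtered with filterByExpr, scaled by TMM (factors 0.928 to 1.054) and tested by edgeR 4.0.16's robust quasi-likelihood test (R 4.3.3) on group alone, with Benjamini-Hochberg adjustment over all 15774 genes or 33345 transcripts; an adjusted p under 0.05 passed. The common biological coefficient of variation was 0.258. DESeq2 1.42.0 was an alternative, with others on scaling, filter, length and libraries. Depth limits the precision of low values. The edgeR p-values weigh the group difference against variation between mice, which edgeR moderates across genes. Its SE and intervals were derived from the log2 fold change and the F statistic of the test.

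The 10 markers and all gene lists were chosen with earlier results of these data known, so counts over a list are descriptions. Named beside the 10 were genes of a list that passed, otherwise up to 3 of each list by highest TPM, and the 3 genes most like each marker; some genes this rule takes are not reported here. The lists cover A-fibre, C-fibre, pan-neuronal, axotomy, filament, node, transporter, RUNX and ETS, whirlin, calcium-binding, muscle, lymphocyte, plasma cell, macrophage, spinal cord, satellite glia and Schwann cell genes. Of those with no count in the results, muscle (17 of 20 tested) had 0 passing, lymphocytes (2 of 12) 0, plasma cells (12 of 14) 8 higher and 1 lower in MM, macrophages (12 of 12) 7 higher, spinal cord (4 of 12) 0, satellite glia (7 of 7) 0 and Schwann cells (11 of 11) 0. Promoter sequences are RefSeq's (GRCm38.p6), with an entry for 6 of the 10 genes. Python 3.11.15 was used for summaries and plots.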

Additional observations from a re-analysis of the deposited data

Results flagged for a closer look

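Each of 66 sets of 9 libraries was examined for 1 library far from the rest. In 8 sets the gap to the nearest other library, as a share of the whole range, was above Dixon's critical value of 0.493. Chance flags about 1 in 20 sets where these are independent and normally distributed. The sets here overlap, such as Pvalb with Pvalb-202, so the 8 flags cannot be read against that rate. In SHAM8 Pvalb stood at 1308 CPM, against 381 CPM in the next library, a gap of 0.737, and Pvalb-202 at 2866 TPM, against 876 TPM, a gap of 0.694. In MM6 Pvalb-202 stood at 503 TPM, against 247 TPM in the next MM library, a gap of 0.512. These libraries had the highest summed muscle level of their groups, 27609 CPM in SHAM8 and 2965 CPM in MM6.

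In MM5 the TPM ratio of Nefl to Nefh was 3.28, against 2.74 in the next MM library, a gap of 0.649, and the ratio of Nefl to Nefm was 2.28, against 1.92, a gap of 0.642. The other 3 concern transcripts of low level, whose split between isoforms is Salmon's estimate. Whrn-201 had 5.94 TPM in MM3, against 2.69 TPM in the next MM library, a gap of 0.548. Whrn-202 had 4.84 TPM in MM2, against 3.12 TPM, a gap of 0.518. Etv1-208 had 16.5 TPM in MM2, against 8.46 TPM, a gap of 0.527.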

How the results depend on the processing

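No marker passed the threshold under any of 27 alternatives, where the lowest adjusted p was 0.109 (Etv1 without SHAM6), and 265 of 270 log2 fold changes of the 10 markers kept their sign. The 5 that did not were Nefl (0.026) and Slc17a7 (0.022) without MM5, MM8 and MM9, Pvalb (0.11) without SHAM7 and SHAM8, and Runx3 (0.011) and Calb1 (0.0057) scaled on pan-neuronal genes. Pvalb-202 turned to 1.62 with the replicate number as a block, to 1.14 without SHAM7 and SHAM8, and to 1.99 without MM2, MM6, SHAM2, SHAM7 and SHAM8; these leave-outs of muscle-rich libraries, and those of single libraries for transcripts, were chosen after seeing the data. Leaving out 1 library at a time gave log2 fold changes from -1.70 to -0.40 for Pvalb, from -0.38 to -0.24 for Etv1 and from -0.43 to -0.28 for Whrn; the other genes stayed between -0.29 and -0.06.

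Genes that passed numbered 433 higher and 38 lower in MM. They were 1133 higher and 243 lower with DESeq2, 20 lower without a filter, 67 lower with an effective length offset, 278 and 6 scaled on pan-neuronal genes, 53 and 7 without MM5, MM8 and MM9, 29 and 6 without SHAM7 and SHAM8, and 79 and 7 without the 5 muscle-rich libraries. With 1 library left out they ran from 75 to 891 higher and from 9 to 139 lower. Transcripts that passed numbered 93 higher and 17 lower; they were 6 lower without a filter, 9 and 1 without MM5, MM8 and MM9, 0 and 0 without SHAM7 and SHAM8, 15 and 0 without the 5 muscle-rich libraries, and from 23 to 477 higher and from 4 to 50 lower with 1 library left out. The cause of these shifts was not tested. Replicate numbers are not stated to pair the mice. Deviations of same-numbered libraries correlated between -0.32 and 0.263, and 2 of 9 libraries correlated best with their own number. These values cannot show whether mice were paired by handling. With the replicate block, 7 genes passed higher and 1 lower, and 7 transcripts higher and 0 lower.

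TPM levels recomputed as medians or per pan-neuronal level moved by less than the SD between libraries, but for Pvalb in SHAM that SD exceeds the mean, and its level was 220 TPM as a median, against 603 TPM as a mean. Depth limits the low transcripts most, and Salmon's assignment error is not in the files.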
